A study of Rattus norvegicus with 12 samples.

Results

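The visinin-like neuronal calcium sensors were followed across 4 populations of rat neurons by taking every probe set annotated to *Ncald*, *Hpca*, *Hpcal1*, *Hpcal4*, *Vsnl1* or *Ncs1*. These 6 genes were represented by 10 of the 15923 probe sets on the array, and 7 of the 10, at least 1 for each gene, passed the filter on low signal. The arrays carried RNA of neurons cut by laser from hippocampal CA1 and CA3, the cerebellar granule cell layer (CbG) and the frontal cortex (CTX) of untreated Fisher 344/BN F1 hybrid rats aged 6 months, with 3 replicates per region and 12 arrays in all. The study classed CA1 and CbG as vulnerable (VUL, 6 arrays) and CA3 and CTX as resistant (RES, 6 arrays) to oxidative stress, and its question was which transcripts differ between the 2 classes before any stress. No genotype, transgene or agent separated the groups, so each comparison was one between brain regions.

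Proteins of this family bind calcium through EF-hand loops and most carry a myristoyl group at the N terminus. In the best-studied members calcium binding swings that fatty acid outward, and the protein then moves from the cytosol to membranes. They thus couple a calcium rise in a neuron to membrane traffic, ion channels, receptors and cyclic nucleotide signalling, and each member has its own set of neurons in which it is abundant.

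The array labelled CA3 replicate 3 and the array labelled CbG replicate 3 stood apart from the other arrays with their labels. The summed signal of 5 granule cell markers reached 24214 for the array labelled CA3 replicate 3 but lay between 1675 and 1743 in the other CA3 arrays. It was 1779 in the array labelled CbG replicate 3 and between 21910 and 25373 in the other CbG arrays. Markers of forebrain excitatory neurons (3 measured of 4 listed) summed to 1095 and 11258 in these 2 arrays, against 11213 to 12745 in the other CA3 arrays and 850.1 to 971.5 in the other CbG arrays. CA3 markers (2 measured of 5 listed) summed to 2671.9 for the array with the CbG label, within the 2370.5 to 2990 of the other CA3 arrays. Their sum was 1554.8 to 1625.1 in CA1, 667.9 to 737.2 in the other CbG arrays and 567.7 to 629.1 in CTX. The array with the CA3 label had 554.4, below all of these ranges. The array labelled CbG replicate 3 also had a CA1 marker sum of 7467.5, above the 1007 to 2109 of the other CA3 arrays and below the 27286 to 34260 of CA1. Labels and values could not be reconciled here. Counts of called members are therefore given for the 12 arrays as labelled, for the same arrays with these 2 labels exchanged (a choice made after the values were seen), and for the 10 arrays without them, and each single value is given with its arrangement.

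Sequence upstream of the first base is shown for *Hpcal1*, whose signal varied most between regions, and for *Vsnl1*, whose signal varied least. Both are read 5′ to 3′ from RefSeq (GRCr8), cover only bases before the gene's annotated span, and carry the GC box, GGGCGG on either strand, in capitals. The *Hpcal1* stretch is chr6:46206644-46206808 on the plus strand and the *Vsnl1* stretch is chr6:39878557-39878806 on the minus strand.
Hpcal1: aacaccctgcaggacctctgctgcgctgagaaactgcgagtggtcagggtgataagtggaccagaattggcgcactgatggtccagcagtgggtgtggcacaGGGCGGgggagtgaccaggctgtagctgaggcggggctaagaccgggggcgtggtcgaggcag
Vsnl1: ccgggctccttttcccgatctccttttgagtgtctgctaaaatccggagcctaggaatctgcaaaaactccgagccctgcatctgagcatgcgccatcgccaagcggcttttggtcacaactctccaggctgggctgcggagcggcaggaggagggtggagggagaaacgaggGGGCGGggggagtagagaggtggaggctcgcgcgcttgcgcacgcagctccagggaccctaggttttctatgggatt
Of the 6 genes, 5 had a window in the table and *Ncald* was not matched. In windows of 250 bases a GC box occurred 3 times for *Hpcal1*, 2 times for *Hpcal4*, 1 time for *Vsnl1* and in neither *Hpca* nor *Ncs1*, while 30.47% of all 33465 windows held at least 1. The E-box CAGATG was found in the windows of *Hpcal4* and *Vsnl1* and in 13.96% of all windows. GC content was 50.8% for *Hpca*, 60.8% for *Vsnl1*, 66.4% for *Hpcal4*, 67.2% for *Hpcal1* and 80.8% for *Ncs1*, against a median of 51.2% over all windows. The base each window leads up to lay inside the annotated gene span by 2603 bases for *Hpca*, 331 for *Hpcal4* and 85 for *Hpcal1*. The windows of *Hpca* and *Hpcal4* thus lay within the span and that of *Hpcal1* in part. The *Hpcal1* stretch shown has 165 bases and 1 of the 3 GC boxes of its window. These letters describe the windows and were not related to the signals.

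Signals of the 6 genes fell into distinct regional patterns. *Hpca* was high in the hippocampus, *Hpcal1* in the granule cell layer, *Ncald* in CA3 and cortex, and *Hpcal4* in the cortex and hippocampus. *Vsnl1* was high in all 4 regions, and *Ncs1* had its highest raw signals in CTX within a narrower range. The 2 doubted arrays followed the opposite label in each of the 4 genes with a strong pattern. Signals below are linear MAS5 values on one scale for all arrays, each value belongs to 1 probe set, and levels are compared between regions and never between probe sets.

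**Figure D1:**
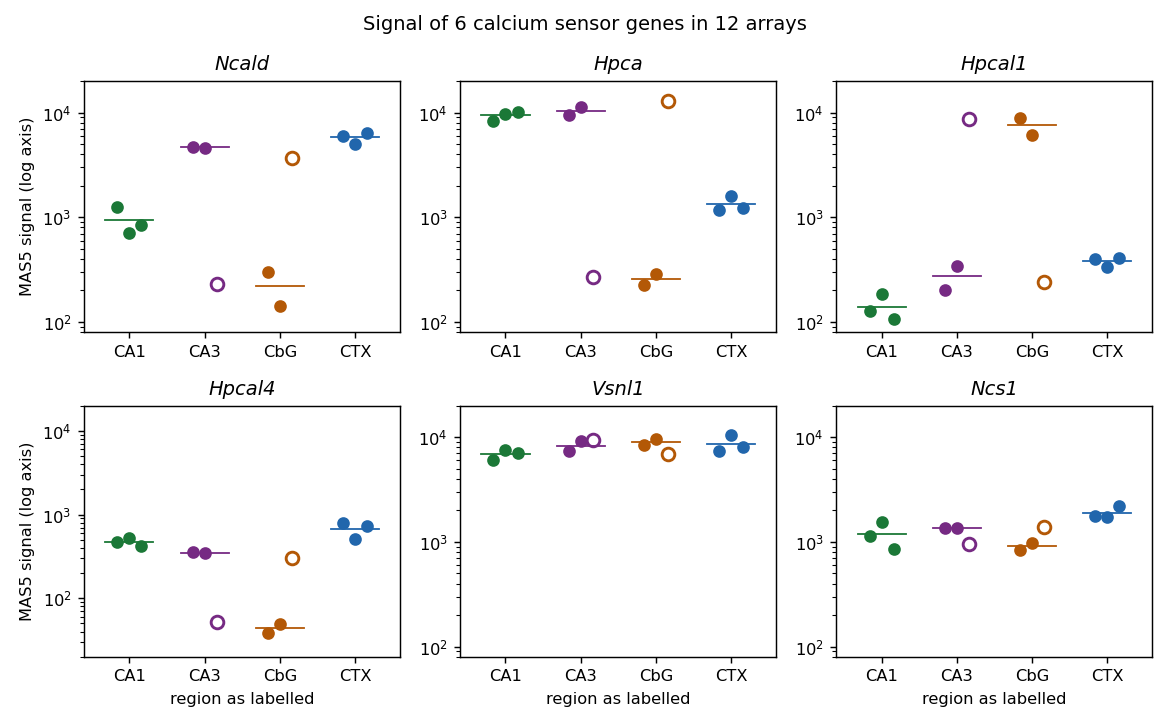
MAS5 signal (log axis) of the main probe set of each of the 6 genes in the 12 arrays, grouped by labelled region. Filled points are 10 arrays, lines are the mean of the filled points of a region, and open points are the 2 doubted arrays, which lie apart from the filled points of their own label in *Ncald*, *Hpca*, *Hpcal1* and *Hpcal4*.

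*Ncald* encodes neurocalcin delta, which in the presence of calcium binds clathrin and membrane guanylyl cyclase. Its signal (1372953_at) was 1260.4, 703 and 835 in CA1 and 5964, 5060.1 and 6419 in CTX. It was 4684 and 4636 in CA3 replicates 1 and 2 and 299 and 143 in CbG replicates 1 and 2. The array labelled CA3 replicate 3 had 228 and the array labelled CbG replicate 3 had 3716. CTX and the first pair of CA3 arrays were thus high, CA1 was intermediate, the first pair of CbG arrays was low, and these sets did not overlap. With the 2 labels exchanged the region means were 5814 ± 692 in CTX, 4345 ± 546 in CA3, 933 ± 291 in CA1 and 223 ± 77.9 in CbG (SD, n = 3 each). As labelled, CA3 had 3183 ± 2559 and CbG 1386 ± 2019 (SD, n = 3 each), so the spread within each of these regions was nearly as large as its mean or larger.

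*Hpca* encodes hippocalcin, known for its abundance in hippocampal pyramidal cells and for a role in the slow afterhyperpolarisation that follows a burst of spikes. Its signal (1387387_at) was 8365, 9618 and 10195 in CA1 and 1173, 1613 and 1217 in CTX. It was 9452 and 11368.5 in CA3 replicates 1 and 2 and 226 and 289.7 in CbG replicates 1 and 2. Among the doubted arrays the one labelled CA3 had 269.5 and the one labelled CbG had 12800. Every array was thus near the hippocampal level, the cortical level or the low cerebellar level, and nothing lay between them. Region means with the labels exchanged were 11207 ± 1680 in CA3, 9393 ± 935 in CA1, 1335 ± 242 in CTX and 262 ± 32.3 in CbG (SD, n = 3 each). Labelled as deposited, CA3 had 7030 ± 5933 and CbG 4439 ± 7241 (SD, n = 3 each).

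*Hpcal1* encodes hippocalcin-like protein 1, also called visinin-like protein 3, a close relative of hippocalcin. Its signal (1372179_at) was 128, 186 and 106 in CA1 and 398.5, 334 and 406 in CTX. It was 203 and 341 in CA3 replicates 1 and 2 and 8924 and 6158 in CbG replicates 1 and 2. The array labelled CA3 replicate 3 had 8646 and the array labelled CbG replicate 3 had 241. The 3 arrays with a high granule cell marker sum were thus far above the 9 others. Exchanging the labels gave means of 7909 ± 1523 in CbG, 379 ± 39.8 in CTX, 262 ± 71.4 in CA3 and 140 ± 41.1 in CA1 (SD, n = 3 each), against 5108 ± 4436 in CbG and 3063 ± 4835 in CA3 as labelled (SD, n = 3 each). The other *Hpcal1* probe set, 1369562_at, gave 642 and 315 in the first pair of CbG arrays, 571 in the third array labelled CA3 and between 6.4 and 74.8 in the 9 other arrays. It exceeded the array median in only those 3 arrays and did not pass the filter.

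Purkinje cells lie beside the granule layer and express *Hpcal1* strongly in the adult cerebellum, so their markers are given with it. Of the 5 listed Purkinje markers all were on the array, and their summed signal was 15789 and 37256 in CbG replicates 1 and 2. A sum of 2607 was found in the array labelled CA3 replicate 3, below the 3809 to 3886 of the other CA3 arrays, though it was one of the 3 arrays with high *Hpcal1*. The defining markers *Pcp2* and *Car8* were at 295 and 115 in that array, against 1883 and 3602 (*Pcp2*) and 3850 and 9877 (*Car8*) in CbG replicates 1 and 2. In the 9 other arrays *Pcp2* lay between 50.6 and 85.3, below the 295 of the array labelled CA3 replicate 3, and *Car8* between 21.9 and 277. Most of the sum of 2607 was *Itpr1* at 2119, a marker that the 9 other arrays also held at 3013 to 7116. *Hpcal1* was 8646 in that array, 8924 in CbG replicate 1 and 6158 in CbG replicate 2. The part of Purkinje cells in the *Hpcal1* signal was not tested.

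**Figure D2:**
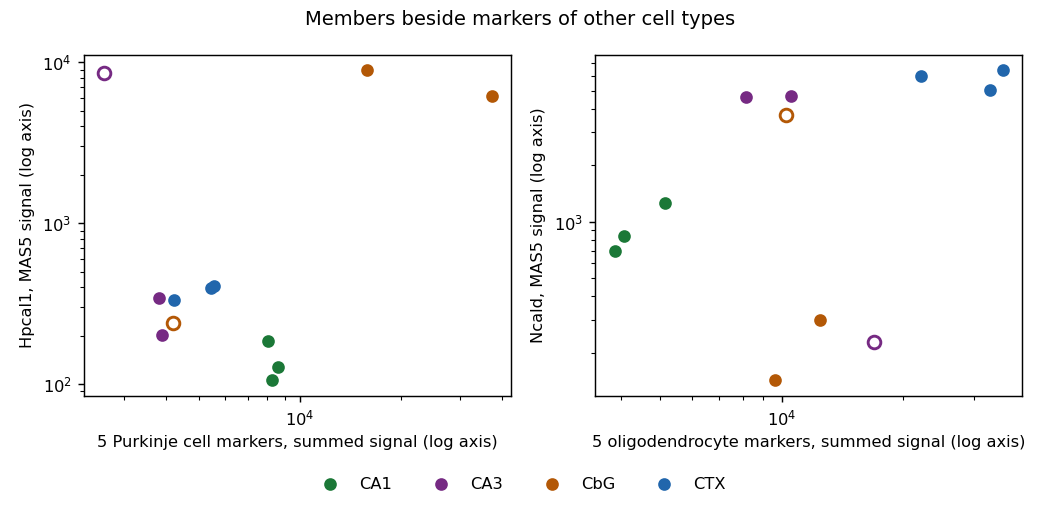
*Hpcal1* signal against the summed signal of 5 Purkinje cell markers (left) and *Ncald* signal against that of 5 oligodendrocyte markers (right), on log axes, with 1 point per array coloured by labelled region and open points for the 2 doubted arrays. The array labelled CA3 replicate 3 has the lowest Purkinje sum, 2607, and one of the 3 high *Hpcal1* signals.

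*Hpcal4* encodes visinin-like protein 2, a brain member with few known partners. Its signal (1375765_at) was 467, 521 and 424 in CA1 and 793, 512 and 737 in CTX. It was 358 and 345 in CA3 replicates 1 and 2 and 38.8 and 49.8 in CbG replicates 1 and 2. The array labelled CA3 replicate 3 had 51.4 and the array labelled CbG replicate 3 had 305. The 3 low arrays were the same ones in which *Hpcal1* was high. They were the only arrays in which *Hpcal4* was below the array median. The gene thus passed the filter only through the 9 other arrays, and its differences from these 3 are given as a description. With the labels exchanged the means were 681 ± 149 in CTX, 471 ± 48.8 in CA1, 336 ± 27.9 in CA3 and 46.7 ± 6.86 in CbG (SD, n = 3 each), and as labelled 252 ± 174 in CA3 and 131 ± 150 in CbG (SD, n = 3 each). The other probe set, 1387639_at, lay between 2.9 and 46 in the 12 arrays, never exceeded an array median and did not pass the filter.

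*Vsnl1* encodes visinin-like protein 1, an abundant neuronal protein known for its release into the cerebrospinal fluid when neurons are damaged. Its brighter probe set, 1368854_at, gave 6044, 7611 and 7028 in CA1 and 7408, 10474 and 8108 in CTX. It gave 7305, 9297 and 9390.5 in the CA3 arrays as labelled and 8455, 9581 and 6925 in the CbG arrays as labelled. All 4 regions overlapped. With the 2 labels exchanged the means were 9142 ± 603 in CbG, 8663 ± 1606 in CTX, 7842 ± 1274 in CA3 and 6894 ± 792 in CA1 (SD, n = 3 each). Neighbours in this order differed by less than the larger of their SDs. The dimmer probe set, 1368853_at, gave 427, 367 and 427 in CA1, 438.5, 405 and 352 in CTX, 684, 887 and 841 in CA3 as labelled and 694, 334 and 466 in CbG as labelled. It was higher in each labelled CA3 array than in any CA1 or CTX array, except that CbG replicate 1 also reached that level, so the 2 *Vsnl1* probe sets disagreed on CA3.

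*Ncs1* encodes neuronal calcium sensor 1, or frequenin, which binds phosphatidylinositol 4-kinase beta and the dopamine D2 receptor. Its signal (1374103_at) was 1141, 1558.5 and 865 in CA1 and 1757, 1747 and 2199 in CTX. It was 1356 and 1362.5 in CA3 replicates 1 and 2 and 839.6 and 987 in CbG replicates 1 and 2. The doubted arrays had 963 (labelled CA3) and 1384 (labelled CbG). All CTX arrays were above all the others, and CA1 spanned most of the remaining range. Means with the labels exchanged were 1901 ± 258 in CTX, 1368 ± 14.9 in CA3, 1188 ± 349 in CA1 and 929.7 ± 78.9 in CbG (SD, n = 3 each). The other probe set, 1387685_at, lay between 59.3 and 128.5, never exceeded an array median and did not pass the filter.

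The comparison of VUL with RES neurons called none of the 7 tested member probe sets with the 12 arrays as labelled, where 0% of all 7535 tested probe sets were called. A call required a Benjamini-Hochberg adjusted p under 0.05 in limma, with the rat as a block, and at least a 1.5-fold difference. None of the 7 had an unadjusted p under 0.05 in that fit, and none had one when the paired test named in the study's methods was run here on the values as labelled. The log2 differences of array-centred signal as labelled were -2.09 ± 0.99 for *Ncald* (SE, adjusted p = 0.537), 0.64 ± 1.25 for *Hpca* (adjusted p = 0.93), 0.09 ± 1.11 for *Hpcal1* (adjusted p = 0.989) and -0.75 ± 0.67 for *Hpcal4* (adjusted p = 0.802). Their intervals were wide, from -4.33 to 0.16 for *Ncald*. Replicates with one number were taken as one rat, and these p-values measure the spread left between arrays once region and rat are taken out. The number of arrays limits the precision.

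With the 2 labels exchanged, 4 of the 7 were called, against 18.5% of all tested probe sets. Counts of calls here and below include *Hpcal4*, whose differences from CbG are a description. *Ncald* was 10.7-fold lower in VUL neurons (log2 difference -3.42 ± 0.16, SE, adjusted p = 4.64e-08) and *Hpca* was 2.31-fold lower (-1.21 ± 0.13, adjusted p = 2.14e-05). *Hpcal4* was 3.02-fold lower (-1.60 ± 0.16). This is a description, since the gene passed the filter only through the arrays without cerebellar levels. *Hpcal1* was 3.52-fold higher in VUL neurons (1.82 ± 0.18, adjusted p = 1e-05). The 3 lower and 1 higher members stood against 8.29% of all tested probe sets called lower and 10.2% called higher. *Ncs1* had a difference of -0.55 ± 0.14 (adjusted p = 0.0109), below the fold required, but it was called with quantile normalization and without centring. *Vsnl1* had 0.04 ± 0.13 (adjusted p = 0.826, interval -0.24 to 0.32). In the 10 arrays 5 of the 7 were called, against 17.8% of all 7463 tested there. They were the same 4 genes, with -3.54 for *Ncald*, -1.71 for *Hpcal4*, -1.21 for *Hpca* and 1.72 for *Hpcal1*, and *Ncs1* at -0.60 (adjusted p = 0.0212). The 4 genes were thus called only where the 2 labels were exchanged or the arrays left out, and the direction of *Hpca* turned with that choice. *Ncald* was named by the study from these samples, so its direction is no independent evidence.

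The VUL and RES classes each join 2 regions, and the members seldom differed alike in both pairs. For CA1 against CA3, none of the 7 probe sets was called as labelled (1.3% of all tested were), 2 were with the labels exchanged (13.5%) and 1 in the 10 arrays (10.5%). *Ncald* was lower in CA1 than in CA3, at -2.26 ± 0.23 on the log2 scale with the labels exchanged (SE, adjusted p = 4.37e-05) and in the 10 arrays it differed by -2.42 ± 0.26 (adjusted p = 0.000184). *Hpcal1* was also lower in CA1, with -0.92 ± 0.25 (adjusted p = 0.0261), but the call was lost in the 10 arrays (adjusted p = 0.0629), with no filter, with quantile normalization and without CA1 replicate 1, CA1 replicate 3 or CA3 replicate 2. *Hpca* differed by -0.26 (interval -0.65 to 0.14) and *Hpcal4* by 0.48 (interval 0.00 to 0.96), and neither was called.

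For CbG against CTX, none of the 7 was called as labelled (0.624% of all tested were) although 2 had an unadjusted p under 0.05. With the labels exchanged 5 were called (34%), 4 lower in CbG (13% of all were called lower) and 1 higher (20.9% were called higher), and 5 were called in the 10 arrays (26.3%). *Ncald* was 23.8-fold lower in CbG (-4.57 ± 0.23, SE, adjusted p = 8.32e-09), *Hpca* 4.46-fold lower (-2.16 ± 0.18, adjusted p = 1.2e-06) and *Ncs1* 1.79-fold lower (-0.84 ± 0.20, adjusted p = 0.00556), all with the labels exchanged. *Hpcal4*, below the array median in CbG, differed by -3.67 ± 0.22, again a description. *Ncald* and *Hpca* lay near that median in the arrays with cerebellar levels, at 0.86 to 1.75 times it. *Hpcal1* was 23.5-fold higher in CbG (4.55 ± 0.25, adjusted p = 1.92e-08). *Hpca* was thus called in the CbG and CTX pair and not in the CA1 and CA3 pair, *Hpcal1* went in opposite directions in the 2 pairs, and *Ncald* was the only member called lower in the VUL region of both.

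The difference between the 2 pairs was itself tested, as CA1 minus CA3 against CbG minus CTX. The exchange of the 2 labels leaves this estimate unchanged and alters its error alone. None of the 7 probe sets was called as labelled (2.07% of all tested), 5 were with the labels exchanged (24%) and 4 in the 10 arrays (14.9%). With the labels exchanged the estimates were -5.47 ± 0.35 for *Hpcal1* (SE, adjusted p = 1.88e-07), 1.90 ± 0.26 for *Hpca* (adjusted p = 0.000128) and 2.31 ± 0.33 for *Ncald* (adjusted p = 0.000175), and 4.14 ± 0.31 for *Hpcal4* as a description. *Ncald* was thus lower by different amounts in the 2 pairs. The dimmer *Vsnl1* probe set gave -1.43 ± 0.46 (adjusted p = 0.0389) and lost its call in the 10 arrays, with no filter, without centring and in 9 of the 12 fits that left out 1 array, and *Ncs1* gave 0.59 ± 0.29 (adjusted p = 0.155).

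**Figure D3:**
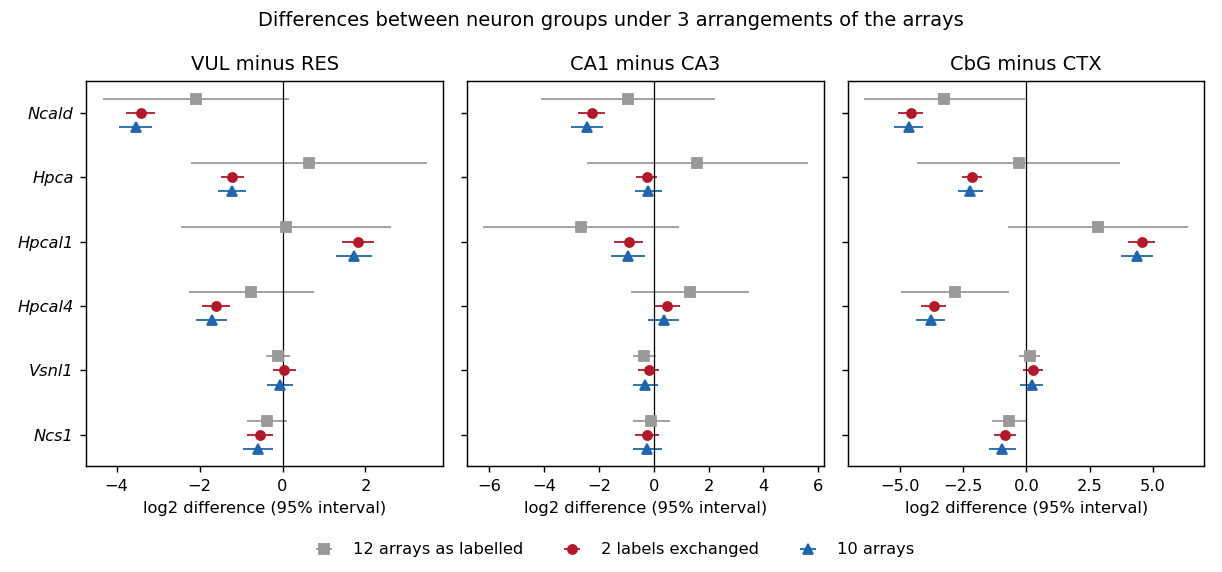
Log2 difference of array-centred signal with its 95% interval for the main probe set of each of the 6 genes in VUL minus RES, CA1 minus CA3 and CbG minus CTX, each as labelled, with the 2 labels exchanged and in the 10 arrays. As labelled the intervals of *Ncald*, *Hpca*, *Hpcal1* and *Hpcal4* are several times wider than in the other 2 arrangements.

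The remaining pairs of regions set the order of levels within each gene. As labelled none of the 7 probe sets was called between CA1 and CTX (6.61% of all tested), CA1 and CbG (1.25%) or CA3 and CbG (0%). Unadjusted p was under 0.05 for 0, 2 and 1 of them. In CA3 against CTX 1 was called (1.94%), the dimmer *Vsnl1* probe set, which was higher in CA3 by 1.35 ± 0.27 (SE, adjusted p = 0.0407). Exchanged labels gave 3 calls between CA1 and CTX (34.1%), 3 between CA3 and CTX (36.3%), 4 between CA1 and CbG (40.6%) and 5 between CA3 and CbG (45.5%). In the 10 arrays these counts were 3 (34.7%), 2 (34.2%), 4 (39.3%) and 6 (43.1%). Of the 7 probe sets 3 to 5 were thus called between such pairs with the labels exchanged, where 34.1% to 45.5% of all tested probe sets were, and the counts are read against that level.

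*Hpca* had a clear order with the labels exchanged. It was 8.85-fold higher in CA1 than in CTX (adjusted p = 1.87e-07) and 39.5-fold higher in CA1 than in CbG (adjusted p = 1.49e-10), with CA1 and CA3 not told apart. *Ncald* was 4.65-fold higher in CA1 than in CbG (adjusted p = 4.28e-06) and 5.12-fold lower in CA1 than in CTX (adjusted p = 9.57e-06), while CA3 and CTX differed by -0.09 (interval -0.59 to 0.41, adjusted p = 0.771). *Hpcal1* was 52.2-fold lower in CA1 than in CbG (adjusted p = 1.19e-09) and 2.22-fold lower in CA1 than in CTX (adjusted p = 0.00337), and CA3 and CTX differed by -0.23 (interval -0.77 to 0.30). Both ends of each order were thus separated, and only neighbours were not. In CA1 replicates 1, 2 and 3 *Hpcal1* was at 0.81, 1.16 and 0.72 times the array median, and *Ncald* was at 0.86 times in CbG replicate 2. Folds against these levels thus rest on signals near the median of all probe sets, and detection calls were not used.

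*Hpcal4* was 11.1-fold higher in CA1 than in CbG with the labels exchanged, given as a description for the same reason. CA1 and CTX differed by -0.19 (interval -0.67 to 0.29). CA3 was 1.59-fold below CTX (adjusted p = 0.0295), a call that was lost in the 10 arrays (adjusted p = 0.108), with no filter and when CA3 replicate 1, CA3 replicate 2, CTX replicate 1, CTX replicate 3 or the array labelled CbG replicate 3 was left out. *Ncs1* was 1.63-fold higher in CA3 than in CbG (adjusted p = 0.0106), a call lost with no filter, with quantile normalization, without centring and without CbG replicate 1, and CA1 differed from CbG by 0.45 (interval 0.02 to 0.89, adjusted p = 0.0849). The dimmer *Vsnl1* probe set was higher in CA3 than in CTX by 1.05 ± 0.33 (SE, adjusted p = 0.022) with the labels exchanged. That call was lost with no filter, with quantile normalization, without centring and without CA3 replicate 1, CA3 replicate 2 or CTX replicate 3. The brighter probe set differed by 0.19 (interval -0.21 to 0.58). The region order of *Vsnl1* was thus not settled by its probe sets.

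Scaling touched the comparisons with the cortex. The array medians of log2 signal averaged 7.59 in CTX and 7.27 in CA1, so that centring on the median raised every CA1 minus CTX difference, and the median over all tested probe sets was 0.33 there after centring. *Vsnl1* stood at 0.00 in CA1 minus CTX, below that median, and at -0.32 without centring as labelled. With the labels exchanged the called differences of *Ncald*, *Hpca* and *Hpcal1* against CTX were larger than this shift, while the CA3 minus CTX differences of *Ncald* and *Hpcal1* were smaller. *Ncs1*, with its highest raw signals in CTX, differed there by -0.39 in CA1 minus CTX (adjusted p = 0.142) after centring. In CA3 minus CTX it differed by -0.14 (adjusted p = 0.609), and neither was called. With the labels exchanged the 6 genes had a median size of difference of 1.40 in VUL minus RES and 2.91 in CbG minus CTX. It was 0.27 and 0.43 over all tested probe sets. Both medians of the 6 genes lie between the values of *Hpca* and *Hpcal4*. *Hpcal4* passed the filter only through the arrays without cerebellar levels. The genes were also chosen with earlier results known, so these medians are a description.

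Fewer cells of a type and less RNA per cell cannot be told apart in captured tissue. Oligodendrocyte markers (5 measured of 6) summed to between 22140 and 35487 in CTX, 8155 and 10521 in the first pair of CA3 arrays, 3850 and 5121 in CA1, and 9641 and 12460 in the first pair of CbG arrays. *Ncald* was high in CTX and CA3 and low in CbG, so that CA3 and CbG had like oligodendrocyte sums and opposite *Ncald* signals. Interneuron markers (6 of 6) summed to between 11905 and 16086 in CTX, 3767 and 5032 in the first pair of CA3 arrays, 7580 and 9034 in CA1 and 5179 and 8257 in the first pair of CbG arrays, an order that none of the 6 genes followed. Astrocyte markers (5 of 5) summed to between 5592 and 21630 over the 12 arrays and were lowest in a CA3 array. The part of these cells in the members' signals was not tested.

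The wider pathway was taken from 5 lists of genes, and its values are given with the labels exchanged unless another arrangement is named. Among other neuronal calcium sensors, 7 of 8 were on the array and 2 were tested, the potassium channel interacting proteins *Kcnip2* and *Kcnip3*. *Kcnip2*, which binds Kv4 channels and raises their surface current, gave 2934, 3721 and 3155 in CA1, 3320 and 4050 in CA3 replicates 1 and 2, 232 and 259.8 in CbG replicates 1 and 2, and 515, 1120 and 787 in CTX. The doubted arrays had 239.7 (labelled CA3) and 3635 (labelled CbG). Once the labels were exchanged it was lower in VUL neurons by 0.82 ± 0.14 on the log2 scale (SE, adjusted p = 0.000755) and lower in CbG than in CTX by 1.47 ± 0.20 (adjusted p = 8.56e-05). Its order of regions was thus that of *Hpca*. *Kcnip3* was 0.74 lower in CA1 than in CTX (adjusted p = 0.00538, and 0.044 as labelled), and in the 10 arrays it was also called 0.65 lower in CA1 than in CbG (adjusted p = 0.0281).

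Among known partners of the sensors, 21 of 26 were on the array and 16 were tested. In VUL neurons 2 were higher and 2 lower with the labels exchanged, beside 10.2% and 8.29% of all tested probe sets, and as labelled none was. In the 10 arrays 2 were higher and 2 lower of the 15 tested, beside 8.66% and 9.17% of all tested probe sets. These few calls are values of single genes and say nothing of the list. The Kv4 channel subunits went in opposite directions, *Kcnd2* higher in VUL neurons by 1.44 ± 0.16 (SE, adjusted p = 3.36e-05) and *Kcnd3* lower by 1.31 ± 0.22 (adjusted p = 0.000623). *Dpp6*, an accessory subunit of the same channels, was higher by 0.90 ± 0.14 (adjusted p = 0.000453), and *Ap2a2*, a subunit of the clathrin adaptor AP2 named after its values were seen, was lower by 0.76 ± 0.17 (adjusted p = 0.00459). In CA3 against CbG 5 of the 16 were higher and 3 lower, beside 27.5% and 18% of all tested probe sets, and none was called as labelled. The 5 included the 4 tested AP2 subunits, singled out after their values were seen, with *Ap2s1* at 1.74 ± 0.28 (SE, adjusted p = 0.000178). In the 10 arrays 6 of the 15 were higher and 0 lower in CA3 against CbG, beside 29.2% and 13.9%. In CA3 against CTX 8 of the 16 were higher and 2 lower with the labels exchanged, beside 27.9% and 8.39%. There 1 was higher and 0 lower as labelled (1.22% and 0.717%), and 8 and 0 of 15 in the 10 arrays (27.1% and 7.03%). The list as a whole was not tested. *Pi4kb*, the kinase bound by NCS1, and the clathrin heavy chain *Cltc* were singled out after their values were seen and were called in no comparison with the labels exchanged.

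Of the enzymes that add the myristoyl group or expose its site, 2 of 4 were on the array and tested. *Nmt1*, an N-myristoyltransferase, was higher by 1.12 ± 0.18 in CA1 than in CTX (SE, adjusted p = 0.00047) and by 1.37 ± 0.18 in CA1 than in CbG (adjusted p = 3.65e-05). As labelled it was called in neither comparison (adjusted p = 0.148 and 0.264), and no enzyme of the list was called in VUL minus RES. Of calmodulin and like proteins 3 of 10 were on the array and 1, *Calm2*, was tested and called in no comparison. Of the calcium buffers 5 of 6 were on the array and 4 were tested, and *Calb2* (calretinin) was higher in VUL neurons by 2.04 ± 0.18 (adjusted p = 3.54e-06) with the labels exchanged, the only 1 of the 4 called. As labelled none was called. In the 10 arrays 3 were called higher, where 8.66% of all tested probe sets were, *Calb2* by 1.88 ± 0.18 (SE, adjusted p = 3.68e-05), *Calb1* (calbindin) by 3.06 ± 0.37 (adjusted p = 0.000141) and *Pvalb* (parvalbumin) by 1.52 ± 0.23 (adjusted p = 0.000679). *Calb1* and *Pvalb* are also on the list of Purkinje markers. Their signals in CbG replicates 1 and 2 were 4181 and 12798 (*Calb1*) and 884 and 2047 (*Pvalb*). In the array labelled CA3 replicate 3, which had granule cell marker levels, *Calb1* was 72 and *Pvalb* 5.3. The part of Purkinje cells in these signals was not tested. *Calb2* was the buffer closest in pattern to *Hpcal1*.

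Likeness of pattern was measured as Pearson r of log2 signal over the 12 arrays, which needs no region label, among 6314 probe sets with 1 gene symbol. The arrays share regions and rats, so r describes pattern and is given with no p. *Hpca* was most like *Kcnip2* (r = 0.994), *Cmas* (0.992) and *Wipf3* (0.991), and 402 probe sets had r above 0.9 with it. *Hpcal1* was most like *Calb2* (0.982), *Camk2d* (0.980) and *Mapk6* (0.979), with 94 above 0.9. *Ncald* was most like *Tmtc1* (0.975), *Stx1a* (0.972) and *Msmo1* (0.961), with 18 above 0.9, and *Hpcal4* was most like *Rasgef1b* (0.983), *Septin5* (0.976) and *Meis2* (0.976), with 107. Among *Hpca*, *Hpcal1*, *Ncald* and *Hpcal4*, *Hpca* thus had the most probe sets above 0.9 and *Ncald* the fewest. *Vsnl1* and *Ncs1* each had 1 probe set above 0.9, *Tssc4* (0.911) and *Zdbf2* (0.916).

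Among the members themselves the signs were mixed. *Hpcal1* ran against *Hpcal4* (r = -0.948), *Hpca* (-0.858) and *Ncald* (-0.735). *Ncald* and *Hpcal4* ran together (0.817), as did *Ncald* and *Ncs1* (0.807) and *Hpcal4* and *Ncs1* (0.800). *Ncald* and *Hpca* were less alike (0.551), since CTX was high in the first and low in the second. The 3 arrays with cerebellar levels lay at one end of the range in *Ncald*, *Hpca*, *Hpcal1* and *Hpcal4*.

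**Figure D4:**
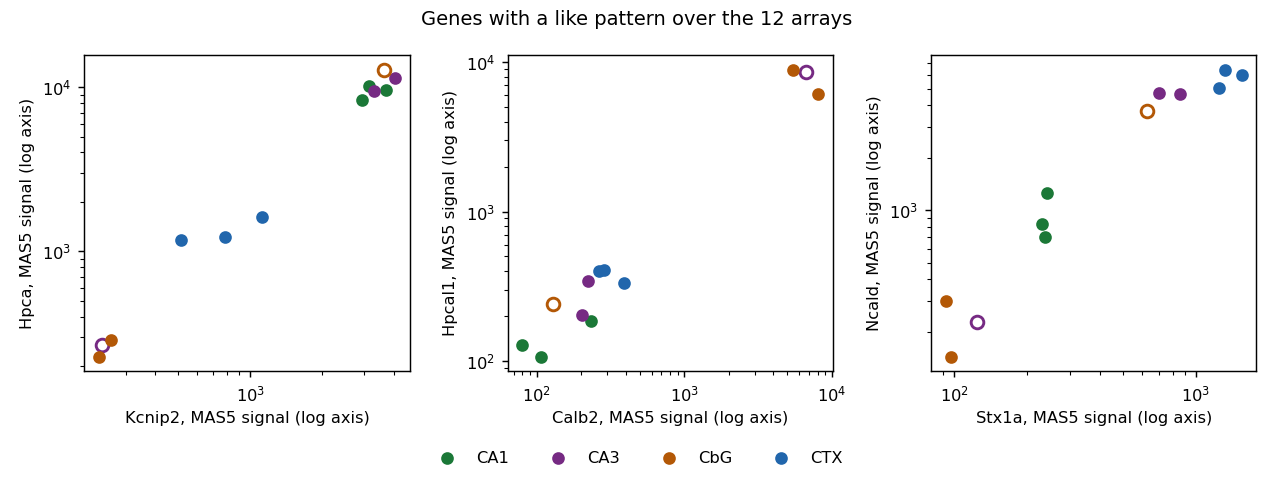
Signals of *Hpca* against *Kcnip2*, *Hpcal1* against *Calb2* and *Ncald* against *Stx1a*, on log axes, with 1 point per array coloured by labelled region and open points for the 2 doubted arrays. In each panel the open CA3 point lies with the CbG arrays, and the open CbG point lies with or beside the CA3 arrays.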

How the data were processed

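RNA of captured neurons was amplified in 2 cycles and hybridised to RAE230A arrays of Affymetrix. The authors deposited linear signal intensity values from MAS5 that had been brought to one target level in every array (the mean without the extreme 2% of signals at each end was alike in all 12). The MAS5 version is not stated in the submitters' processing notes, and 0 columns were left without a sample. The members and gene lists were chosen with earlier results of these data known, and the lists by general knowledge of the pathway.

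Signals were taken to log2 and centred on each array's median over probe sets other than the 57 controls. Probe sets above that median in at least 8 of 12 arrays (7 of 10) were tested with limma 3.58.1 in R 4.3.3, which fitted region means with the rat as a block. All 8 comparisons were adjusted by Benjamini-Hochberg over all tested probe sets (7535, or 7463 in 10 arrays). VUL minus RES is the mean of the 2 VUL regions minus that of the 2 RES regions. The brightest probe set stood for a gene. The 3 genes most like each member, and up to 4 genes of each list by the size of their regional difference, were named. Genes came from the platform annotation, where 12789 probe sets had 1 symbol, 312 several and 2771 were not listed. The RefSeq symbol with the same Entrez gene identifier was used as the name wherever there was a match. The fit was tested on simulated data with independent normal noise of equal size in all probe sets, no rat effect and no exchanged labels. That checked the code and does not measure the precision in these data. Replicates with one number were taken as one rat, since the methods describe all 4 regions as captured from each animal. Array deviations from region means correlated at -0.061 on average within a number (18 pairs) and 0.020 between numbers (36 pairs) as labelled, and at 0.086 and -0.042 with the labels exchanged. Alternatives were no block, no filter, quantile normalization, no centring, 50 added before log2, the methods' paired test, each array left out, and the exchanged labels or 10 arrays. Spot intensities and detection calls were not used here. Figures were drawn with matplotlib 3.10.9.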

Additional observations from a re-analysis of the deposited data

Results flagged for a closer look

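Among the 6 RES arrays as labelled, CA3 replicate 3 stood apart from the others in 3 of the genes. Its gap to the nearest array, as a share of the whole range of the log2 signals, was 0.945 for *Ncald*, 0.841 for *Hpcal1* and 0.773 for *Hpcal4*, beyond what is usual for 6 values. Chance flags about 1 in 20 such groups, and the 3 values are from one array.

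With the 2 labels exchanged, the difference between CA1 and CA3 was not that between CbG and CTX in 4 genes by the limma test of the difference itself. It was 2.31 for *Ncald*, 1.90 for *Hpca*, -5.47 for *Hpcal1* and 4.14 for *Hpcal4* on the log2 scale. The last is a description. *Hpcal4* was below the array median only in the arrays with cerebellar levels and passed the filter through the others. As labelled none of these 4 was called.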

How the results depend on the processing

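Of the 7 tested member probe sets, none was called with the 12 arrays as labelled in VUL minus RES, in the pairs CA1 and CA3, CbG and CTX, CA1 and CTX, CA1 and CbG, or CA3 and CbG, or in the difference between the pairs, and 1 in CA3 minus CTX. With the 2 labels exchanged these counts were, in that order, 4, 2, 5, 3, 4, 5 and 5, and 3 in CA3 minus CTX. In the 10 arrays they were 5, 1, 5, 3, 4, 6 and 4, and 2 in CA3 minus CTX. Leaving out 1 array at a time gave 0 to 1 call in VUL minus RES (1 without CA3 replicate 3), 0 to 3 in CbG minus CTX (1 without CA3 replicate 3, 3 without CbG replicate 3), 0 to 3 in CA1 minus CbG (2 and 3 without the same arrays), 0 to 2 in the difference between the pairs (2 without CbG replicate 3) and 0 to 2 in CA3 minus CTX. The 1 call in CA3 minus CTX became 0 with no filter, with quantile normalization, with no centring and without any one CA1 or CTX array, CA3 replicate 1 or CA3 replicate 2, and 2 without CA3 replicate 3. Without the replicate block the difference between the pairs had 1 call, and removing the block changed no other count. The methods' paired test of VUL against RES called 0 of the 7 before and after adjustment. With the labels exchanged, other settings and leaving out 1 array gave 4 to 5 calls in VUL minus RES, 1 to 2 in CA1 minus CA3 and 5 to 6 in CbG minus CTX, always with *Ncald*, *Hpca*, *Hpcal1* and *Hpcal4* in the first and last. Where VUL minus RES had 5, the added call was *Ncs1*. This held with quantile normalization, without centring and without CA1 replicate 2, CTX replicate 2 or the array labelled CA3 replicate 3. *Ncs1* was also called in CA1 minus CTX with quantile normalization and without centring. The probe sets of *Hpcal1*, *Hpcal4* and *Ncs1* left out by the filter were tested only with no filter. With the labels exchanged the other *Hpcal1* probe set was then also called in CbG minus CTX, where it was 1 of 6 calls. It was also called then in CA1 minus CbG, CA3 minus CbG and the difference between the pairs. Shares over all tested probe sets are not given for these settings or for the fits with 1 array left out.

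Several log2 differences changed direction. *Hpca* turned in VUL minus RES to -1.21 with the labels exchanged and -1.21 in the 10 arrays, and leaving out 1 array gave -0.61 (without CbG replicate 3) to 1.29. In CA1 minus CA3 it turned to -0.26 and -0.20, with a range of -0.84 (without CA3 replicate 3) to 2.81. Leaving out 1 array also took it from -2.82 to 0.99 (without CbG replicate 1) in CbG minus CTX and from -0.53 (without CA3 replicate 3) to 4.41 in the difference between the pairs. *Hpcal1* ranged, with 1 array left out, from -0.58 (without CA3 replicate 1) to 1.20 in VUL minus RES and from -3.55 to 0.00398 (without CA3 replicate 1) in CA3 minus CbG. In CA3 minus CTX it turned to -0.23 with the labels exchanged and -0.21 in the 10 arrays, and ranged from -0.73 (without CA3 replicate 3) to 2.83. *Ncald* ranged from -2.90 to 0.23 (without CA3 replicate 2) in CA1 minus CA3, from -0.21 (without CbG replicate 2) to 2.80 in CA1 minus CbG, and from -2.59 to 0.54 (without CA3 replicate 3) in CA3 minus CTX, where the 10 arrays gave 0.067. *Ncs1* ranged from -0.33 to 0.13 (without CA1 replicate 3) in CA1 minus CA3. *Vsnl1* turned with the labels exchanged to 0.044 in VUL minus RES and -0.087 in CA3 minus CbG, and with quantile normalization to -0.16 in CbG minus CTX, -0.37 in CA1 minus CTX and -0.084 in CA3 minus CTX. Without centring it turned to -0.055 in CbG minus CTX and -0.32 in CA1 minus CTX. In the latter it gave -0.070 with 50 added before log2 and -0.090 (without CA1 replicate 3) to 0.083 with 1 array left out. The cause of these changes was not tested. Low signal, as for *Hpcal4* below the array median in CbG or *Hpcal1* near it in CA1, and 3 arrays per region limit the precision.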
